A study of Mus musculus with 14 samples.

Results

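The anterior Hox genes of the newborn mouse hindbrain were followed across 14 brains. They are 10 genes, Hoxa2, Hoxb2, Hoxa3, Hoxb3, Hoxd3, Hoxb4, Hoxc4, Hoxa5, Hoxb5 and Hoxa6, and were taken from the table by symbol. All 10 had a row in the deposited counts, among 17927 genes. Of 29 further Hox genes, 6 had a row (Hoxa4, Hoxd4, Hoxc5, Hoxb6, Hoxb7 and Hoxb8). RNA from brains at postnatal day 2 was sequenced from 7 wild-type mice (WT) and 7 mice that lacked the protease gene Capn15 (Capn15 KO, a lacZ-Neo line made in C57BL/6J mice). The brains came from 6 litters, and no animal was treated. The litter of each brain was read from a letter in the header of the counts. Females made up 2 of the 7 WT and 4 of the 7 Capn15 KO brains, and the rest were male.

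Hox genes encode homeodomain transcription factors that lie in clusters and give cells their position along the body axis. Their order along a cluster, numbered as paralog groups, follows the order in which they are used from front to back, so that low groups reach farthest forward into the hindbrain and higher groups are used mostly in the spinal cord. In the hindbrain they set the identity of the segments called rhombomeres and of the neurons that arise there, and the midbrain and forebrain largely lack them. In bulk RNA from a brain, fewer cells with Hox transcripts and less transcript per cell cannot be told apart.

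Library totals lay between 37620954 and 70910163 counts, and levels are given as CPM, a library's counts scaled to the same total, after scaling by edgeR's trimmed mean of M values (TMM). Capn15, the deleted gene, was at 24.98 to 27.3 CPM in WT replicates 1 to 6 and at 12.2 to 14.5 CPM in Capn15 KO replicates 1 to 6. In the litter of replicate 7 it went against the labels, with 18.7 CPM in the library labelled WT and 20.2 CPM in the library labelled Capn15 KO, so every genotype direction below rests on the labels. The sex given for each brain fitted the counts of the Y-linked gene Ddx3y in 14 of 14 libraries. A label gives the cell type as neurons although brain tissue was taken, and markers of oligodendrocytes, microglia and red blood cells were present beside those of neurons. Capn15 KO replicate 4 and the library labelled WT replicate 7 stood apart from the others in the Hox genes, as described below, so results are also given over the 12 libraries without them.

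The 10 genes lie in the 4 Hox clusters, on chromosomes 6 (Hoxa), 11 (Hoxb), 15 (Hoxc) and 2 (Hoxd) of GRCm38. Exons of 4 of them, Hoxa5, Hoxa6, Hoxb4 and Hoxc4, share no base with the exons of another annotated gene. Hoxd3 shares 62.9% of its exon bases, mostly with Hoxd4 and a read-through gene on the same strand. Hoxb3 shares 52.9% and Hoxb2 27.3%, in both cases with the antisense transcript Hoxb3os. Hoxa3 shares 27.1%, Hoxa2 15.0% and Hoxb5 3.59%. The strand setting of the counting was not given in the sources used here, so the counts of these 6 genes may include or lack reads of their neighbours and are less certain than those of the other 4.

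To show the sequence in front of genes at both ends of the range, the windows just upstream of Hoxa2 and Hoxa5 are printed from RefSeq (GRCm38.p6). They were picked because, among the 7 of the 10 genes with an entry, Hoxa2 differed least and Hoxa5 most between Capn15 KO replicate 4 and the other Capn15 KO brains on the log2 scale, apart from Hoxa6 with 1 count there. The Hoxa2 window is chr6:52164832-52165081 and the Hoxa5 window chr6:52204588-52204837, both on the minus strand and written 5′ to 3′ with the transcription start just after the last base. Capitals mark the match to TGATNNAT, a motif bound by Pbx with Hox or Meis proteins, which was searched on both strands.
Hoxa2: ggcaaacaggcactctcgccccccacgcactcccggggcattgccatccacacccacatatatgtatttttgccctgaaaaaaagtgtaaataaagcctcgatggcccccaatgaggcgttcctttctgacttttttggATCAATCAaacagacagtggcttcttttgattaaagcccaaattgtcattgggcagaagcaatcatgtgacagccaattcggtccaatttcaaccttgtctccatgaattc
Hoxa5: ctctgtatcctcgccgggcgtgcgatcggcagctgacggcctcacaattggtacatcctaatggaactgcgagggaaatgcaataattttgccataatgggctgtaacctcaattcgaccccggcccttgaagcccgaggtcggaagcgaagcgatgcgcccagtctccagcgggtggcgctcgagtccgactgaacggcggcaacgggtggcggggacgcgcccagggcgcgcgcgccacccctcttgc
The motif lay in the window of Hoxa2 alone among the 7 genes, and in 7.68% of the 32851 windows of all genes. The homeodomain core TAATTA was in 0 of the 7 windows and in 4.84% of all windows, and the TATA box TATAAA was in 0 of 7 and in 12.4%. The direct repeat of AGGTCA with 5 bases between, which retinoic acid receptors read, was in 0 of 7 and in 0.00913% of all windows. The Hoxa2 window held 6 CpG dinucleotides at 46.4% G and C, and the Hoxa5 window held 28 at 63.6%, against medians of 6 and 52.4% over all windows.

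Hoxa5 gave the most transcript of the 10 genes for its length. CPM per kb divides the CPM from all counts of a gene by the kilobases of its exons that no other gene shares. For genes with shared exons, among them Hoxb3, Hoxb2 and Hoxd3, this value is too high if reads on shared bases were counted. Hoxa5 was at 6.01 ± 2.36 CPM per kb (SD, n = 14). Hoxb3 followed at 3.001 ± 0.783 CPM per kb. A middle group held Hoxa2 at 1.27, Hoxb5 at 1.24, Hoxc4 at 1.20 and Hoxd3 at 1.046 CPM per kb. Lower came Hoxb2 at 0.637, Hoxa6 at 0.632 and Hoxb4 at 0.590 CPM per kb, and Hoxa3 was lowest at 0.188. The order did not follow the paralog groups. Over all 14 libraries 0 of the 9 pairs of neighbours in this order had ranges that did not overlap. Without the 2 libraries that stood apart 3 pairs did not overlap. The range of Hoxa5 then lay above that of Hoxb3, which lay above that of its next neighbour Hoxb5, and the range of Hoxb4 lay above that of Hoxa3. Had all exon bases been used, Hoxb3 would be at 1.41, Hoxb2 at 0.463 and Hoxd3 at 0.389 CPM per kb. Without the 2 libraries that stood apart, 2 pairs of neighbours would then not overlap. Hoxb3, with a minimum of 1.02 CPM per kb, would overlap with Hoxb5, with a maximum of 1.81.

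Paralog group 2 held Hoxa2 and Hoxb2, which pattern rhombomeres and the neural crest that leaves them. Hoxa2 ranged in WT from 1.03 to 2.79 CPM with a median of 1.96, and in Capn15 KO from 1.31 to 2.99 CPM with a median of 1.76. Hoxb2 ranged in WT from 1.22 to 2.17 CPM (median 1.59) and in Capn15 KO from 0.905 to 2.37 CPM (median 1.69). For both genes the genotypes overlapped almost over their whole ranges, and the lowest brain of each genotype was the library labelled WT replicate 7 or Capn15 KO replicate 4.

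In paralog group 3, whose genes act in the caudal hindbrain and its motor nuclei, Hoxb3 was the most abundant. Hoxb3 ranged in WT from 4.70 to 8.18 CPM (median 6.23) and in Capn15 KO from 2.84 to 8.26 CPM (median 5.64). Hoxd3 was at 1.12 to 2.25 CPM in WT (median 1.61) and 0.785 to 2.49 CPM in Capn15 KO (median 1.80). Hoxa3 was at 0.472 to 1.09 CPM in WT (median 0.892) and 0.443 to 1.19 CPM in Capn15 KO (median 0.906). The genotypes overlapped for all 3 genes, and again the lowest brains were the same 2.

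Paralog group 4 reaches the border of the caudal rhombomeres. Hoxc4 ranged in WT from 2.20 to 4.14 CPM (median 3.37) and in Capn15 KO from 0.865 to 4.85 CPM (median 2.94). Hoxb4 ranged in WT from 1.07 to 2.27 CPM (median 1.55) and in Capn15 KO from 0.322 to 1.97 CPM (median 1.54). The other 6 Capn15 KO brains were at 2.02 CPM or more for Hoxc4 and at 1.15 CPM or more for Hoxb4, so Capn15 KO replicate 4 lay well below them.

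Paralog groups 5 and 6 are the most caudal of the 10 genes. Their Hox5 proteins take part in the identity of the phrenic motor neurons of the cervical cord. Hoxa5 ranged in WT from 6.17 to 14.3 CPM (median 11.4) and in Capn15 KO from 1.31 to 17.7 CPM (median 12.5). Hoxb5 ranged in WT from 2.06 to 4.42 CPM (median 3.34) and in Capn15 KO from 0.262 to 5.04 CPM (median 3.69). Hoxa6 ranged in WT from 0.192 to 0.816 CPM (median 0.5683) and in Capn15 KO from 0.0201 CPM, which is 1 count, to 1.09 CPM (median 0.620). For these 3 genes Capn15 KO replicate 4 was the lowest brain of all 14, and the remaining values of the genotypes overlapped.

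**Figure D1:**
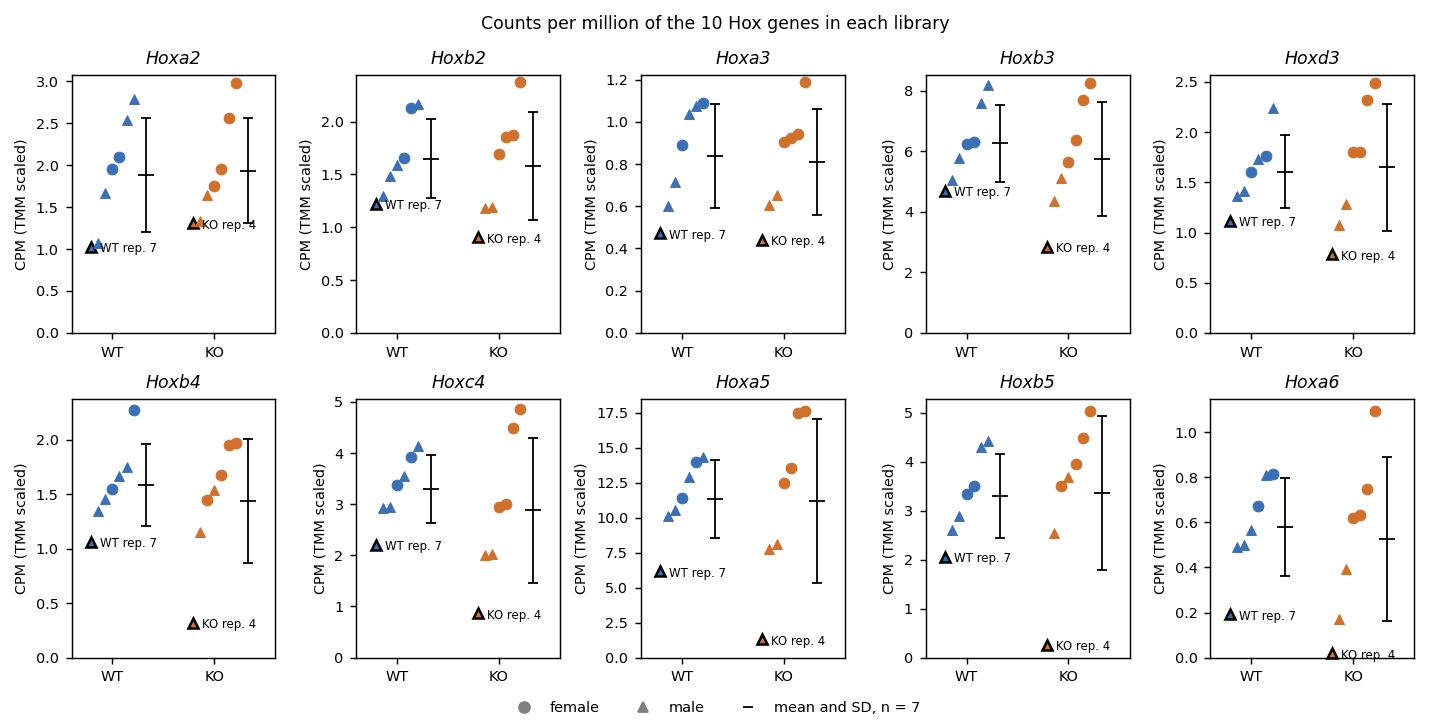
CPM of each of the 10 genes (vertical axis, from 0) in the 7 WT and 7 Capn15 KO libraries, drawn as circles for female and triangles for male brains, with the mean and SD of each genotype beside them. Capn15 KO replicate 4 and the library labelled WT replicate 7, outlined and named, are the lowest of their genotype in all 10 panels.

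The spread between brains was larger than the counting error of the libraries for every gene. Over the 12 libraries the coefficient of variation ran from 18.6% for Hoxb4 to 37.5% for Hoxa6, which was 1.44 to 6.09 times what the counts alone give. Over all 14 it ran from 26.1% (Hoxb3) to 52.3% (Hoxa6). Mean counts per library lay between 25.4 for Hoxa6 and 527 for Hoxa5, so Hoxa6 and Hoxa3 were the least precise.

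Capn15 KO replicate 4 was below all other Capn15 KO brains in 10 of 10 genes, against 12.8% of all genes and 16.2% of the 6393 genes whose mean lay in the range of the 10. The gap widened with the paralog group. Relative to the median of the other 6 Capn15 KO libraries, log2 CPM differed by -0.49 for Hoxa2 and -0.94 for Hoxb2 in group 2, which left 70.4% and 51.0% of that median. In group 3 the differences were -0.98 (Hoxa3), -1.07 (Hoxb3) and -1.16 (Hoxd3), or 48.4%, 47.2% and 43.5% of the median. In group 4 they were -1.73 (Hoxc4) and -2.18 (Hoxb4), or 29.1% and 20.02%. In group 5 they were -3.27 (Hoxa5) and -3.67 (Hoxb5), or 10.04% and 6.84%. For Hoxa6 the difference was -3.42, from 1 count. Spearman's rho of paralog group and difference was -0.96 over the 10 genes, given as a description because the genes come from 1 brain. In 8 of the 10 genes this brain held 50% or less of the median of the other Capn15 KO brains, against 0.516% of the genes at a like level. The cut of 50% was not part of the plan, so this contrast is a description and no test.

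Against the brain of its own litter the counts of the pair give an interval. Hoxa2 in Capn15 KO replicate 4 was at 62.2% of WT replicate 4 (exact 95% interval 44.3 to 86.96), Hoxb3 at 45.5% (36.8 to 56.2), Hoxc4 at 22.01% (15.3 to 30.99) and Hoxa5 at 9.36% (7.13 to 12.1). These intervals cover counting error only. The intervals of Hoxb3, Hoxc4 and Hoxa5 did not overlap each other. The order within groups 2 and 3 was not the same as against the median, since Hoxb2 of group 2 was at 42.6% (29.0 to 61.8), below Hoxb3 and below Hoxd3 at 48.8% (31.95 to 73.7), and Hoxa3 was at 40.7% (23.2 to 69.4). The intervals of these 4 genes overlapped. Hoxb4 was at 14.2%, Hoxb5 at 7.84% and Hoxa6 at 2.47%.

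The 6 Hox genes outside the list continued the series in this brain. Hoxa4 and Hoxd4 of group 4 were at 19.96% and 25.2% of the median of the other Capn15 KO brains, and Hoxc5 of group 5 was at 10.2%. Hoxb7 had 1 count. Hoxb6 and Hoxb8 had 0 counts, where 3 counts would be 0.0604 CPM, so they were at least 27.7-fold and at least 17.6-fold lower than that median. All 6 were below every other Capn15 KO brain.

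In the library labelled WT replicate 7 the fall was smaller and flatter. It was below all other WT brains in 10 of 10 genes, against 18% of all genes and 14.9% of genes at a like level. Its log2 difference from the median of the other 6 WT libraries was smallest for Hoxb2 at -0.40 and largest for Hoxa6 at -1.497, which had 11 counts. By paralog group the median differences were -0.67, -0.56, -0.61, -0.84 and -1.497 from group 2 to group 6, and Spearman's rho over the 10 genes was -0.59. In 8 of the 10 genes it held 75% or less of the WT median, against 10.6% of genes at a like level. Hoxb3 at 75.1% and Hoxb2 at 75.4% lay just above that cut. The cut was not part of the plan and differs from the 50% used for Capn15 KO replicate 4, so this contrast is a description and no test. Beyond the 10 genes Hoxc5 was at -1.20, Hoxb6 at -1.91 and Hoxb7 at -3.03, while Hoxa4 at -0.40 and Hoxd4 at -0.31 were lowered less than the group 3 genes, which were at -0.97 (Hoxa3), -0.56 (Hoxd3) and -0.41 (Hoxb3). Hoxb8 had 3 counts. Against Capn15 KO replicate 7 of its litter, this library was at 104% for Hoxb2 and Hoxd3, 109% for Hoxc4 and 92.1% for Hoxb3. It was lower for Hoxa5, at 79.1% (exact 95% interval 67.6 to 92.6), and Hoxb5, at 55.9% (43.4 to 71.9). For the rest of the 10 genes the interval, which covers counting error only, included the level of the litter mate. Much of the low level was thus shared by both brains of the litter.

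**Figure D2:**
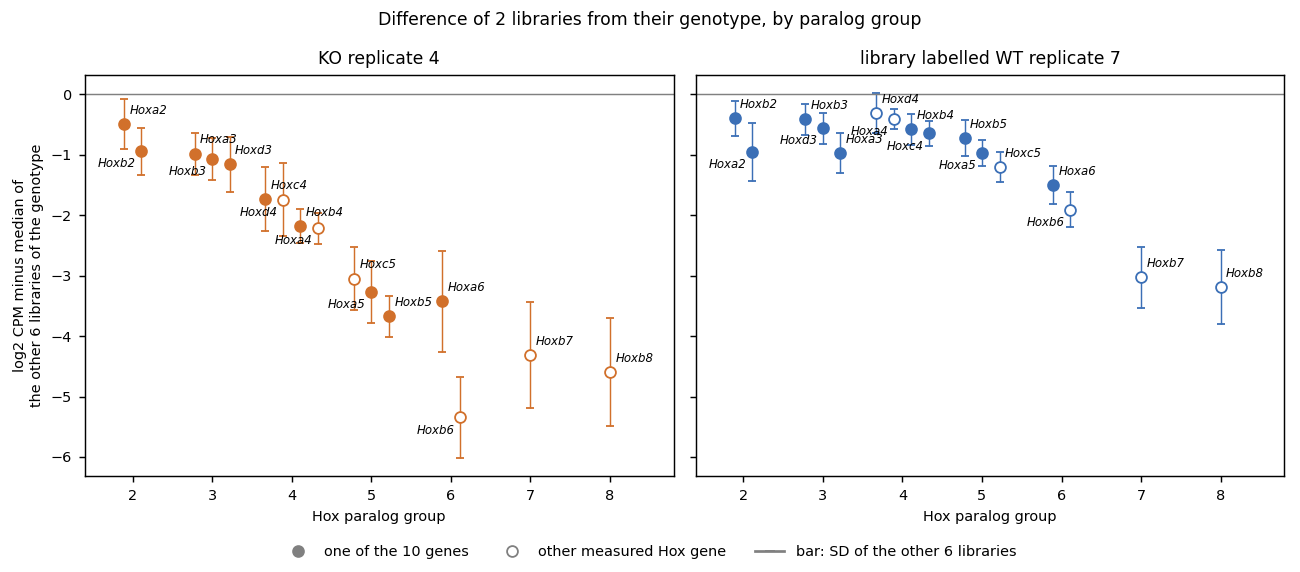
Log2 CPM of each Hox gene in a single library minus the median of the other 6 libraries of its genotype (vertical axis), by paralog group (horizontal axis), for Capn15 KO replicate 4 (left) and the library labelled WT replicate 7 (right), with filled points for the 10 genes, open points for other Hox genes and bars for the SD of the other 6 libraries. On the left the members step down from -0.49 to -3.67, and on the right they stay between -0.40 and -1.497 while Hoxb7 and Hoxb8 fall to -3.03 and -3.19.

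Capn15 KO replicate 4 had the steepest slope of the 14 brains. Over the 10 genes, the median difference of groups 5 and 6 minus that of groups 2 and 3 was -2.44 in Capn15 KO replicate 4 and -0.41 in the library labelled WT replicate 7, and between -0.25 and 0.25 in the other 12. With the 6 other Hox genes included it was -2.69 in Capn15 KO replicate 4, and the library labelled WT replicate 7, at -0.94, was then close to Capn15 KO replicate 5 at -0.93, with WT replicate 3 at -0.72. By Spearman's rho over the 10 genes Capn15 KO replicate 5 (-0.61) and WT replicate 2 (-0.68) also lay below the library labelled WT replicate 7 (-0.59). The median log2 difference of the 10 genes from the genotype median was highest in 3 brains of litter B, at 0.67 and 0.55 in its Capn15 KO brains and 0.43 in WT replicate 2. Among the 12 it was lowest in Capn15 KO replicates 5 and 7, at -0.55 and -0.51, and the library labelled WT replicate 7, a litter mate of the latter, was at -0.68.

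Markers of several other cell populations were read in the same 2 libraries. The summed CPM of 5 measured sensory ganglia markers was 4.37 in Capn15 KO replicate 4, against 6.22 to 9.54 in the other Capn15 KO brains, and 5.19 in the library labelled WT replicate 7, against 6.98 to 7.84 in the other WT brains. None of the 5 was at 0. Prrxl1 had the largest part in both low sums, at 1.19 and 1.64 CPM against 2.07 to 5.19 and 3.34 to 4.35 CPM. In the library labelled WT replicate 7 the other 4 markers were within the range of the other WT brains, and in Capn15 KO replicate 4 Avil, Scn10a and Trpv1 were within that of the other Capn15 KO brains. The 3 glycinergic markers (Slc6a5, Glra1 and Slc32a1) summed to 60.1 CPM in Capn15 KO replicate 4, against 69.1 to 76.7, and all 3 were lowest there, while the library labelled WT replicate 7 at 74.6 was within 63.99 to 78.8. Slc6a5, the glycine transporter of that list, was lowest in both, at 10.5 CPM in Capn15 KO replicate 4 against 13.4 to 18.8 and at 11.7 CPM in the library labelled WT replicate 7 against 14.4 to 19.1. In the latter library the rest of the list did not follow. Slc32a1, at 59.8 CPM, was above the other WT brains (44.8 to 58.3), and Glra1 was within their range. The 6 motor neuron markers were at 34.3 CPM in the library labelled WT replicate 7, against 39.6 to 50.5, and the 6 forebrain markers at 92.9 against 104 to 131. Both lists were in range in Capn15 KO replicate 4. The sums of the other marker lists (serotonergic and noradrenergic neurons, cerebellum, midbrain, choroid plexus, leptomeninges, oligodendrocytes, microglia, red blood cells and neurons) were within or above the range of the other brains of the genotype in both libraries. Their part in the Hox differences was not tested.

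Across the 14 brains the 10 genes rose and fell together. Of the 45 pairs, 43 had a Pearson correlation of log2 CPM past an adjusted p of 0.05 (permutation test with 100000 resamples, Benjamini-Hochberg over the 45 pairs), and 35 did by Spearman's rho. Pearson's r ran from 0.41 to 0.96 with a median of 0.85. All pairs share the same libraries, so they are not independent of each other. The permutation also takes the 14 brains as independent although some are litter mates, so its p-values may be too small. The highest value was for Hoxa5 and Hoxb5, both of group 5, with r = 0.96 (permutation p = 5e-05, adjusted 0.00015) and rho = 0.83 (permutation p = 0.00062, adjusted 0.00133). It rested in part on the extreme brains, since without the 2 farthest on the Hoxa5 axis r was 0.73. Hoxc4 and Hoxa5 had r = 0.96 and rho = 0.93 (permutation p = 1e-05 for both, the smallest these permutations can give, adjusted 5.62e-05 and 0.000225), and without the 2 farthest brains r was 0.91. The lowest value was for Hoxa2 and Hoxb4, with r = 0.41 (permutation p = 0.15, adjusted 0.15) and rho = 0.42 (permutation p = 0.137, adjusted 0.143).

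Leaving out the 2 farthest brains pair by pair gave a median r of 0.73, from 0.28 to 0.95. Over the 12 libraries the median was 0.75, from -0.14 to 0.94, and 31 of the 45 pairs passed. Hoxb4 separated from the rest there. Its median r with the other 9 genes was 0.36 over the 12 libraries against 0.72 over all 14, and its r with its cluster neighbours was -0.14 for Hoxb5 and 0.08 for Hoxb3. Hoxb3 at 0.85 and Hoxa5 at 0.84 had the highest such medians.

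By distance in paralog number, the 6 pairs of the same group had a median r of 0.88 (0.80 to 0.96), the 18 pairs 1 group apart 0.88 (0.68 to 0.96), the 12 pairs 2 apart 0.84 (0.41 to 0.91), the 7 pairs 3 apart 0.75 (0.54 to 0.83) and the 2 pairs 4 apart 0.65 (0.50 and 0.80). These ranges overlapped, and the differences between distances were not tested. Without the 2 libraries that stood apart the medians were 0.79, 0.78, 0.76, 0.62 and 0.45, and pairs 1 apart ran from -0.14 to 0.94. Lying in the same cluster did not go with a higher value, since the 12 pairs within a cluster had a median of 0.78 and the 33 pairs across clusters 0.85. With the genotype means subtracted 44 pairs passed. With litter, sex and genotype removed 37 did, but the values left over for litter mates then depend on each other. The permutation takes them as independent, so its p-values are too small and this count cannot be read as a test. The mean of the 10 genes followed the mean of the 6 other Hox genes with r = 0.96 and rho = 0.82 over the 14 libraries, and r was 0.80 without the 2 farthest brains, which were Capn15 KO replicate 4 and the library labelled WT replicate 7.

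**Figure D3:**
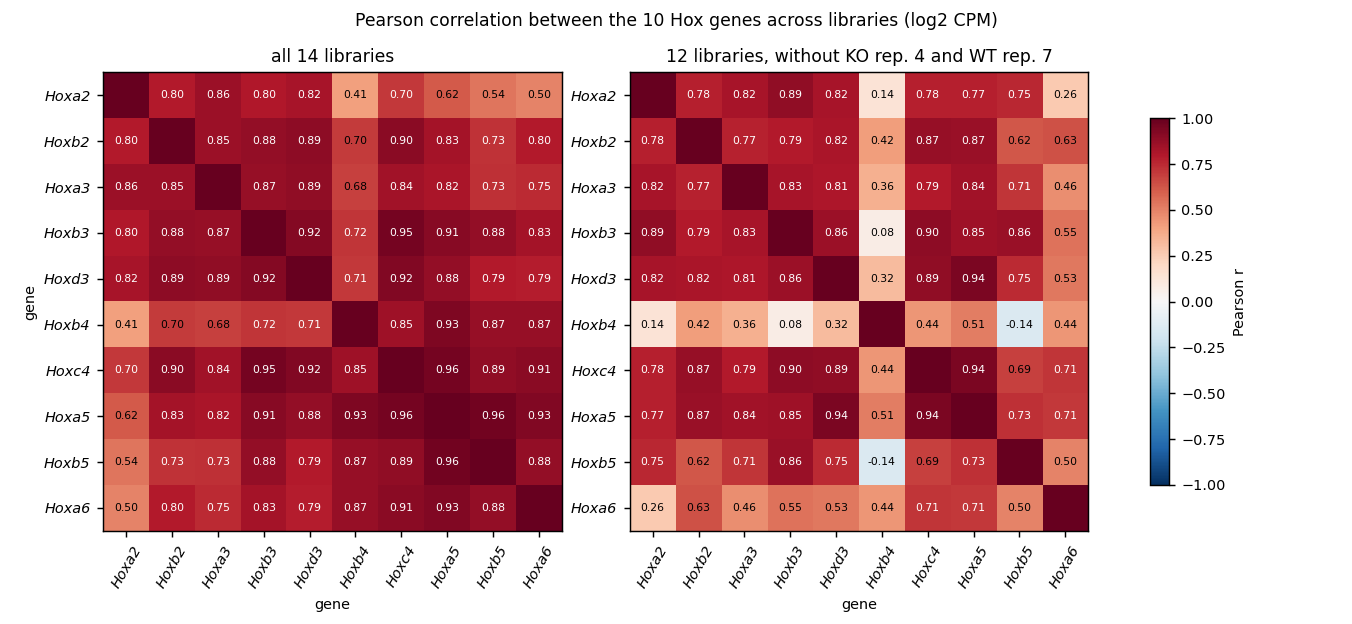
Pearson correlation of log2 CPM for each pair of the 10 genes, over all 14 libraries (left) and over the 12 libraries without Capn15 KO replicate 4 and the library labelled WT replicate 7 (right), with the colour scale from -1 to 1. The left matrix lies between 0.41 and 0.96, and on the right the row of Hoxb4 drops to between -0.14 and 0.51.

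Levels of these genes were higher in the female than in the male brains of most litters. This comparison was added after the values had been seen. In replicates 1 to 6 the WT and the Capn15 KO brain came from the same litter and were of opposite sex, the female being Capn15 KO in 4 pairs and WT in 2. Pairs 2 and 3 both came from litter B, so there were 5 litters, and which female stands beside which male in litter B is arbitrary. Hoxa5 was 13.6 CPM in the female and 10.5 in the male of pair 1, 17.7 and 14.3 in pair 2, 17.5 and 12.9 in pair 3, 13.97 and 1.31 in pair 4, 11.4 and 8.11 in pair 5, and 12.5 and 10.1 in pair 6. For this gene the female brain was higher in every pair. With the mean of log2 CPM taken over the brains of a sex in each litter, females were higher in 5 of 5 litters for 6 genes (Hoxa2, Hoxb2, Hoxb3, Hoxd3, Hoxa5 and Hoxb5) and in 4 of 5 for the other 4, where 2.99% of all genes were higher in 5 of 5. An exact sign-flip test over the 5 litters, two-sided, gave p = 0.0625 for those 6 genes, which is the smallest that 5 litters allow, so this test cannot reach 0.05. It gave 0.125 to 0.312 for the other 4. These genes vary together across the brains, so their results are not separate findings.

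In the fit with litter, sex and genotype, all 10 genes had a positive female minus male log2 difference, as had 51.6% of all genes, and all 10 had an unadjusted p under 0.05, against 2.41% of all genes higher in females at that p. The differences ran from 0.32 ± 0.13 (SE) for Hoxa2 to 1.43 ± 0.37 for Hoxa6, with a median of 0.57 against 0.0021 over all genes. Since the 10 genes vary together across the brains, counts of them are not counts of separate findings. Hoxc4, at 0.72 ± 0.15, had the smallest adjusted p of the 10, 0.20 by edgeR's quasi-likelihood test, so none passed at 0.05, where 0.0669% of all genes did. With edgeR's likelihood ratio test Hoxb3, Hoxc4 and Hoxa6 passed, where 0.201% of all genes did, and with DESeq2 Hoxc4 passed, where 0.106% did. Hoxc4 also passed with either brain of litter D (replicate 5) left out, runs for which no share of all genes was taken. In them litter C, which holds Capn15 KO replicate 4, was the only pair left with a WT female. Both brains that stood apart were male. Over the 12 libraries without them, all 10 differences stayed positive, from 0.09 ± 0.17 for Hoxb4 to 1.17 ± 0.33 for Hoxa6, with a median of 0.38, where 49% of all genes were positive. Then 6 of the 10 genes (Hoxb3, Hoxd3, Hoxc4, Hoxa5, Hoxb5 and Hoxa6) had an unadjusted p under 0.05, against 1.15% of all genes. Hoxa5, at 0.42 ± 0.07, had an adjusted p of 0.0294 by edgeR's quasi-likelihood test, and 0.0781% of all genes passed there. The 2 libraries had been set apart by their low values of these same genes, Hoxa5 among them. The p-values over the 12 libraries are therefore a description and no test. Without WT replicate 4 or Capn15 KO replicate 4 alone, 5 of the 10 had an unadjusted p under 0.05, against 1.47% of all genes. Over all libraries sex and genotype are told apart only by the 2 pairs with a WT female and by litter F, in which both brains were male. Over the 12 libraries litters C and F are left without a pair, so only litter D tells sex and genotype apart there.

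**Figure D4:**
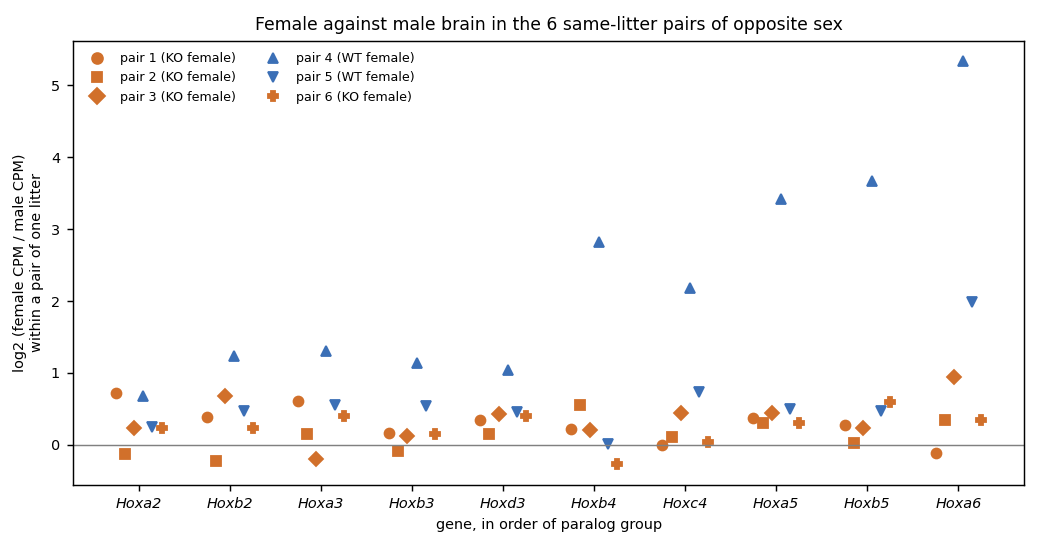
Log2 ratio of female to male CPM within each of the 6 same-litter pairs of opposite sex (vertical axis) for the 10 genes in order of paralog group, with symbols for the pairs and colours for the genotype of the female. Most points lie above 0, and pair 4, which holds Capn15 KO replicate 4, rises with the paralog group.

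The genotypes were compared to ask which genes the loss of Capn15 changes. By mean CPM 7 of the 10 genes were lower in Capn15 KO, and within the pairs the Capn15 KO brain was lower in only 2 to 4 of 7. In the fit with litter, sex and genotype, the log2 fold change (KO minus WT) was negative for all 10, as for 48.6% of all genes. The values ran from -0.05 ± 0.12 (SE) for Hoxa2 to -0.91 ± 0.36 for Hoxa6, with a median of -0.32 against 0.0015 over all genes. Here and below, counts of the 10 genes are not counts of separate findings, since these genes vary together across the brains. None of the 10 passed an adjusted p of 0.05 by edgeR's quasi-likelihood test (adjusted p of 0.47 or more), where 0.00558% of all genes did. None passed by the likelihood ratio test, DESeq2 or limma-voom either, where 0.19%, 0.0948% and 0.00558% of all genes did. This differs from the paper, which used edgeR with sex and litter as variables. It lists Hoxa6, Hoxb3 and Hoxc4 as lower in Capn15 KO at an adjusted p under 0.05, with larger fold changes than here. In the same fit the deleted gene Capn15, at -0.81 ± 0.12, did not pass either (adjusted p = 0.0747 by edgeR's quasi-likelihood test). The paper lists Capn15 too with a larger fold change than here, so the difference is not particular to the Hox genes. The reason for it was not tested.

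At an unadjusted p under 0.05, 3 of the 10 were lower in Capn15 KO, against 2.26% of all genes. They were Hoxc4 at -0.53 ± 0.14 (adjusted p = 0.47 by edgeR), Hoxb3 at -0.29 ± 0.09 (adjusted p = 0.626) and Hoxa6 at -0.91 ± 0.36 (adjusted p = 0.885). This count rested on the sex term, because with genotype alone or genotype and litter it was 0. Exact permutation tests of mean log2 CPM, 7 against 7 and without covariates, gave p from 0.355 to 0.916 for the 10 genes, where the smallest possible p was 0.000583. Over the 12 libraries the same 3 genes had an unadjusted p under 0.05, against 2.44% of all genes. In that fit only litter D told genotype and sex apart, and the 2 libraries left out had been set apart by their values of these genes. All 10 differences then moved towards 0, Hoxc4 to -0.30 ± 0.12, Hoxb3 to -0.23 ± 0.09, Hoxa6 to -0.81 ± 0.33, Hoxa5 from -0.47 ± 0.22 to -0.08 ± 0.07, Hoxb5 from -0.34 ± 0.26 to -0.10 ± 0.12, and Hoxb4 from -0.39 ± 0.24 to 0.07 ± 0.17. The median of the 10 was then -0.11, and 9 of 10 were negative, against 50.5% of all genes. Without either brain of litter C (WT or Capn15 KO replicate 4) the count was 1, against 2.53% of all genes, and without Capn15 KO replicate 4 Hoxc4 was at -0.26, Hoxb3 at -0.15 and Hoxa6 at -0.42. Without WT or Capn15 KO replicate 5 of litter D it was 7, against 3.2% and 3.22%. Without WT replicate 7 it was 5, against 2.05%, and without Capn15 KO replicate 7 or all of litter F it was also 5, against 1.92%.

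**Figure D5:**
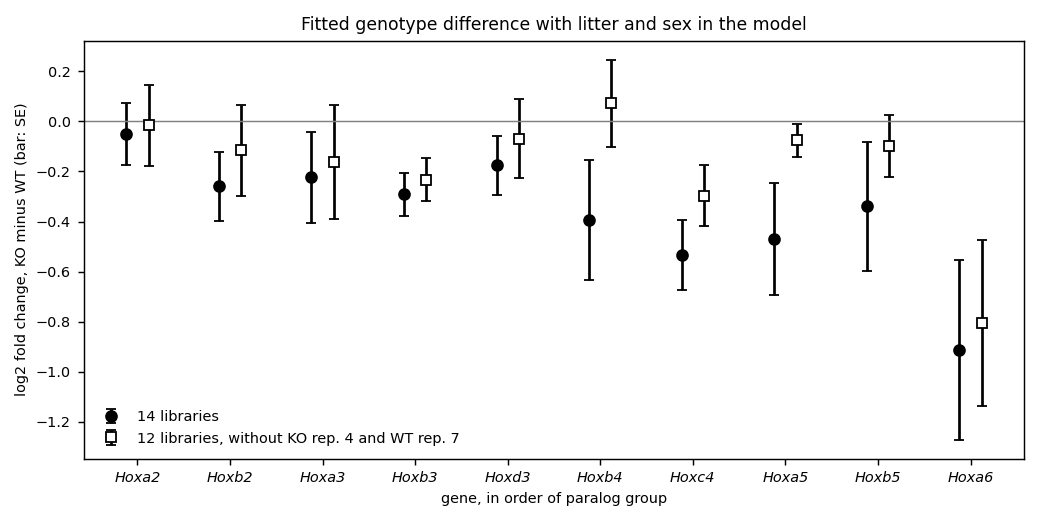
Fitted log2 fold change of the 10 genes (KO minus WT, bars are SE) with litter and sex in the model, over all 14 libraries (filled circles) and over the 12 without Capn15 KO replicate 4 and the library labelled WT replicate 7 (open squares). All 10 filled circles lie below 0, from -0.05 to -0.91, and the open squares lie nearer to 0 for all 10.

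Other Hox genes and genes that act on them were counted in the same genotype fit, from lists made for this work. Of the 6 other Hox genes, 1 was lower at an unadjusted p under 0.05 (Hoxc5, -0.60 ± 0.27) and 0 were higher. Of 22 measured genes that set or keep Hox expression, 2 were lower at that p, Gbx2 (-0.21 ± 0.07) and Crabp2 (-0.23 ± 0.08), and 1 was higher, Kmt2a (0.17 ± 0.07). Of the noncoding genes of the clusters 2 were measured. Hotairm1, of the Hoxa cluster, was lower at that p (-0.61 ± 0.22), and Hoxb3os, at -0.40 ± 0.31, was not past it. Over the 12 libraries the calls of Hoxc5 (-0.16), Gbx2 (-0.12), Crabp2 (-0.17), Kmt2a (0.03) and Hotairm1 (-0.43) were lost, while Hoxb6 (-0.51) and Rxrg (-0.13), a retinoid receptor gene, were lower at that p. For Kmt2a, Capn15 KO replicate 4 was the highest Capn15 KO brain and the library labelled WT replicate 7 the lowest WT brain. Of the markers of other cells, 5 of 6 choroid plexus genes were lower and 3 of 6 forebrain genes higher in Capn15 KO at that p. Also lower were 2 of 6 leptomeningeal genes (Lum and Slc6a13), Otx2 of the midbrain list and Mag of the oligodendrocyte list. C1qb of the microglia list was higher, and the remaining marker lists held no such call. Their part in the Hox values was not tested. None of these genes passed an adjusted p of 0.05 by edgeR's quasi-likelihood test. At an unadjusted p under 0.05, lower calls made up 2.26% and higher calls 2.88% of all genes. Over the 12 libraries lower calls made up 2.44%.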

How the data were processed

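RNA from 14 brains was sequenced after depletion of ribosomal RNA. Per the labels and the study's methods, the authors trimmed reads by Trimmomatic (phred quality 30), aligned them to GRCm38 with STAR 2.7.8 and deposited raw counts per gene, made with HTSeq-count 0.11.1 in the methods and featureCounts in the submitters' processing notes. Strand setting, annotation release and the rule by which low genes had been removed were not given in the sources used here. Labels gave genotype and replicate number. The header of the counts gave each brain's sex and a letter, which was read as its litter although the header does not name it so. All labels name the same batch.

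The members and lists were chosen with earlier results of these data known, and the genes named are the 10 members, Capn15, members of the lists and the 10 genes most like the mean of the members. Counts of the 17927 genes with at least 1 count were fitted with edgeR 4.0.16 (quasi-likelihood test, TMM factors, terms for litter, sex and genotype, R 4.3.3), with Benjamini-Hochberg adjustment at 0.05. DESeq2 1.42.0, limma-voom 3.58.1, other scalings, filters, covariates and left-out libraries were alternatives. Log2 CPM used a prior count of 2. Correlations and levels were computed with Python 3.11.15 and scipy 1.17.1. Exon lengths and overlaps came from GENCODE M21, which held 17915 of the genes, and RefSeq windows covered 7 of the 10 genes. Totals of 37620954 to 70910163 counts put 3 counts at 0.0423 to 0.08 CPM after TMM scaling. Fits were tested on simulated data.

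By the letters read as litters, replicate numbers pair litter mates. Over 15227 genes the correlations of the deviations of same-numbered brains were 0.32, 0.42, 0.32, -0.47, -0.10, -0.07 and 0.44. No library was a copy of another (chi-square per gene 4.66 for the most alike 2). Each library was taken as a separate animal, since nothing in the labels pools or splits animals. The list of Hox cofactors is not reported here.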

Additional observations from a re-analysis of the deposited data

Results flagged for a closer look

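Among the 20 sets of 7 libraries (10 genes in each genotype), 5 held a library whose gap to the nearest other, as a share of the range of log2 CPM, was above Dixon's 95% critical value for 7 samples. Chance flags about 1 such set in 20 where sets are separate, but the 10 genes vary together over the same libraries, so the 5 sets are 2 libraries and not 5 separate findings. In 3 sets the library was Capn15 KO replicate 4, with a share of 0.694 for Hoxb4, 0.684 for Hoxa5 and 0.76 for Hoxb5. In the other 2 it was the library labelled WT replicate 7, with 0.589 for Hoxa5 and 0.632 for Hoxa6. All 5 concern genes of paralog groups 4 to 6, and these are the libraries without which results are also given in the report. The cause was not tested.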

How the results depend on the processing

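Of 958 recomputed values, 876 kept their direction, their side of the threshold or their size. No gene of the 10 passed an adjusted p of 0.05 between genotypes under any alternative run. Over all genes 1 passed in the main analysis, 34 with the likelihood ratio test, 17 with DESeq2, 0 with total count scaling, 2 without the sex term, 2 without Capn15 KO replicate 4 and WT replicate 7, 7 without litter F, and 0 to 7 with a library left out (7 without Capn15 KO replicate 7 and 6 without WT replicate 7). A block of replicate numbers used instead of litters gave 0 genes, and this pairing changed no call among the 10 genes.

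Members lower at an unadjusted p under 0.05 numbered 0 with genotype alone, 0 without the sex term, 5 without litter F and 1 to 7 with a library left out. Members higher in females numbered 6 without both libraries that stood apart and 5 to 10 with a library left out, and members past an adjusted p between the sexes numbered 3 with the likelihood ratio test, 1 with DESeq2, 1 without those 2 libraries and 0 to 1 with a library left out. With a prior count of 0.5 the difference of Hoxa6 in Capn15 KO replicate 4 was -4.38. Neighbours in the order of levels that did not overlap numbered 3 without those 2 libraries, and 2 if all exon bases were used as well.

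The sign of the genotype log2 fold change turned in 5 genes. With genotype alone it was 0.0514 for Hoxa2, 0.0492 for Hoxd3 and 0.0249 for Hoxb5, with genotype and litter 0.0539 for Hoxa2 and 0.00328 for Hoxd3, and without both libraries that stood apart 0.0724 for Hoxb4. With a library left out it ran from -0.12 to 0.0658 for Hoxa2, -0.92 to 0.0855 for Hoxb4, -0.96 to 0.0142 for Hoxa5, and -0.72 to 0.12 for Hoxb5, and the highest values came without either brain of litter C. The difference of mean log2 CPM without covariates was 0.0473 for Hoxd3, 0.0123 for Hoxa5 and 0.13 for Hoxb5 without both libraries. With a library left out it ran from -0.0582 to 0.18 for Hoxa2, -0.20 to 0.0247 for Hoxb2, -0.18 to 0.0692 for Hoxa3, -0.14 to 0.13 for Hoxd3, -0.37 to 0.0409 for Hoxb4, -0.47 to 0.15 for Hoxa5 and -0.44 to 0.24 for Hoxb5. The cause of these turns was not tested.

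Scaling by total count or by relative log expression moved no direction of a gradient or correlation. RLE in the correlations and all comparisons of the sexes were added after seeing the data. Depth limits Hoxa6 and Hoxa3, the genes with the fewest counts, most.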

Other observations

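Among 15215 genes that are no Hox gene and had a mean of at least 1 CPM, those most like the mean of the 10 genes were ranked by Pearson's r of log2 CPM, as a description with no test. Over the 14 libraries Prrxl1 came first (r = 0.95), followed by Idh3g (0.92), Sncg (0.90), Lbx1 (0.90), Tmem209 (0.88), Fbxw5, Cdh3, Serpinb1b, Cant1 and Skor1 (0.86). Over the 12 libraries without Capn15 KO replicate 4 and the library labelled WT replicate 7 the order began with Ddx3x (0.94), Sncg (0.94), Prpf4 (0.93), Elp6 (0.90) and Prrxl1 (0.90), followed by Ebf1, Mab21l1, 5530601H04Rik, Ddit4 and Cdh3 (0.89). Prrxl1, Sncg and Cdh3 were in both lists of 10.

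Prrxl1 was at 29.4% of the median of the other Capn15 KO brains in Capn15 KO replicate 4 and at 43.4% of the WT median in the library labelled WT replicate 7. Lbx1 was at 51.2% and 75.8%, Skor1 at 54.4% and 90.9%, and Serpinb1b at 37.2% and 70.8%. Idh3g, at 88.8% and 97.2%, and Fbxw5, at 91.2% and 94.4%, followed the 10 genes with much smaller changes. Hotairm1, a noncoding gene of the Hoxa cluster, was at 37.3% of the median in Capn15 KO replicate 4, between the shares of groups 3 and 4, and at 79.3% in the library labelled WT replicate 7.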
